A study of Mus musculus with 11 samples.

Results

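The S100 proteins are small calcium-binding proteins with paired EF-hand motifs, and 8 of their genes were followed here in mouse polymorphonuclear neutrophils (PMNs): S100a8, S100a9, S100a4, S100a6, S100a10, S100a11, S100a13 and S100a1. The genes were taken by symbol as 8 of the 54164 rows of a table of TPM (transcript abundance scaled for transcript length and for the total of the library), and all 8 were found, each once. PMNs were elicited in the peritoneum of WT mice (n = 5) and of littermates with a whole-body deletion of Foxo3 (FOXO3 KO, n = 6), both on the C57BL/6 background, male and female, and aged 6 to 8 weeks. All mice, WT included, received 2 intraperitoneal casein injections of 1 mL on consecutive days, and cells were taken 3 h after the second and enriched on a density gradient to over 90% Ly6G+ cells. One RNA library was made per mouse. Because the deletion was present in every cell of the mouse, the comparison of genotypes is not restricted to changes that arise in PMNs. Whether FOXO3 deficiency altered the transcriptome of PMNs was the question of the experiment, and here it is put to the S100 genes.

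S100a8 and S100a9 form calprotectin, a major protein complex of the neutrophil cytosol, which binds zinc and manganese and, once released, acts as an alarm signal through TLR4 and the receptor RAGE. The other members work mainly inside cells: S100a4 binds non-muscle myosin, S100a10 and S100a11 bind annexins at membranes, S100a6 binds the Siah-interacting protein Cacybp, S100a13 takes part in the leaderless release of IL-1α and FGF1, and S100a1 is best known from heart muscle. Most S100 genes lie in a single cluster, the epidermal differentiation region, and differ widely in the cell types that use them.

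All 8 genes lie on chromosome 3 of GRCm38 (the mouse build also called mm10), by the GENCODE M21 annotation, in which each is protein coding. S100a1 (90511034 to 90514392, minus strand) and S100a13 (90514435 to 90524581, plus strand) stand head to head, 42 bases apart. S100a4 (90603771 to 90606045, plus) and S100a6 (90612882 to 90624181, plus) follow, then S100a8 (90668978 to 90670035, plus) and S100a9 (90692632 to 90695721, minus), which point toward each other across 22596 bases. S100a11 (93520488 to 93526287, plus) and S100a10 (93555080 to 93564643, plus) lie 2824766 bases beyond S100a9. By the RefSeq gene spans S100a1 and S100a13 overlap by 98 bases on opposite strands, and S100a4 shares its locus with a same-strand transcript, Gm42674. The use of strand is not given in the sources used here, so reads in such shared stretches could not be assigned with certainty.

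RefSeq promoter windows (GRCm38.p6, 250 bases before the start and 50 after it) were found for 7 of the 8 genes. They are shown for S100a8 and S100a9, the most abundant members, and for S100a4, because these 3 hold TATAAA, the letters of a TATA box. Each sequence runs 5′ to 3′ on the strand of the gene, from 90 bases before the start through the first 10 bases from the start on, with TATAAA in capitals.
S100a8 (chr3:90668981-90669080, plus strand): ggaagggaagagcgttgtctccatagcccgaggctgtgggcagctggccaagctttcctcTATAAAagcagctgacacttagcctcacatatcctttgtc
S100a9 (chr3:90695712-90695811, minus strand): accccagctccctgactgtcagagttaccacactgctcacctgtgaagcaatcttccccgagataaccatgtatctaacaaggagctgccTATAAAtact
S100a4 (chr3:90603680-90603779, plus strand): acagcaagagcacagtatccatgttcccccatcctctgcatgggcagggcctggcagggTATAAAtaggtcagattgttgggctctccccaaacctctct
TATAAA began 30 bases before the RefSeq start of S100a8 and 31 bases before that of S100a4, whereas in S100a9 it began at the RefSeq start itself (position 1). For S100a8 GENCODE places the start earlier, at 90668978, so the whole stretch shown lies inside the gene as given above. Searched on both strands, TATAAA was held by 3 of the 7 windows of the members and by 13.6% of all 32851 windows of 300 bases. The letters TTNNGCAA, read by C/EBP factors, were held by 1 of the 7 windows (S100a9, 236 to 229 bases before the start) and by 10.8% of all windows. The letters GTAAACA, read by FOXO factors, were held by 0 of the 7 windows and by 3.65% of all windows. These motifs do not overlap one another in the windows, and a match describes the letters only. The windows of S100a1 and S100a13 share 204 bases, in opposite orientation.

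Columns of the table carry numbers of either 1 digit (WT 1, 2 and 3, FOXO3 KO 1, 2 and 3, the one-digit series, 6 libraries) or 2 digits (WT 03 and 08, FOXO3 KO 05, 06 and 09, the two-digit series, 5 libraries), and what the numbers stand for is not stated. The series differed widely from each other. With genotype in the fit, 2436 of 12195 genes (20.0%) passed at FDR < 0.05 and a log2 difference beyond 0.5 in size, among them all 7 B cell markers tested, whose summed level was 1157 to 5288 TPM in the two-digit and 72.5 to 549 TPM in the one-digit series. This count was 1500 without WT 08 and 1527 without FOXO3 KO 2. Values are therefore also given by series. Xist and Ddx3y marked both WT libraries of the two-digit series as male (Xist at most 0.115 TPM) and FOXO3 KO 05 and 06 as female (43.8 and 27.7 TPM). FOXO3 KO 09 was marked as male (Ddx3y at 18.0 TPM). In the one-digit series FOXO3 KO 3 alone carried Ddx3y (42.9 TPM, with Xist at 4.29 TPM). Genotype and sex can therefore be fully told apart in neither series. Sex was also unevenly spread between the series, so differences between series are partly mixed with sex, whose part was not tested. Foxo3 checked the labels, with 9.30 ± 1.75 TPM (mean ± SD, n = 5) in WT and 2.44 ± 1.28 TPM (mean ± SD, n = 6) in FOXO3 KO PMNs and no overlap between the groups. Neutrophil markers summed to 5343 to 21941 TPM and macrophage markers to 181 to 1055 TPM per library, and 0 of the 10 neutrophil and 0 of the 12 macrophage markers were at 0 in all libraries. TPM keeps no record of sequencing depth, so the counting error of each value is unknown.

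Levels of the S100 genes in PMNs spanned 4 orders of magnitude. S100a9 (mean 101352 TPM over the 11 libraries) and S100a8 (61960 TPM) ranked 1 and 2 among all genes by mean TPM, S100a6 (3842 TPM) ranked 14 and S100a11 (3559 TPM) ranked 16. S100a4 (686 TPM), S100a10 (361 TPM), S100a13 (81.6 TPM) and S100a1 (9.23 TPM) followed. S100a9 exceeded S100a8 in all 11 libraries, by 1.45 to 2.17 times, although the ranges of the genes over libraries overlapped. Only S100a6 and S100a11 were not ordered: S100a6 was the higher in 8 of 11 libraries, with a ratio of 0.874 to 1.53. S100a4 exceeded S100a10 in every library, by 1.24 to 2.50 times, and the ranges of these genes overlapped too. Each of the other neighbours in this order was apart over its whole range.

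**Figure D1:**
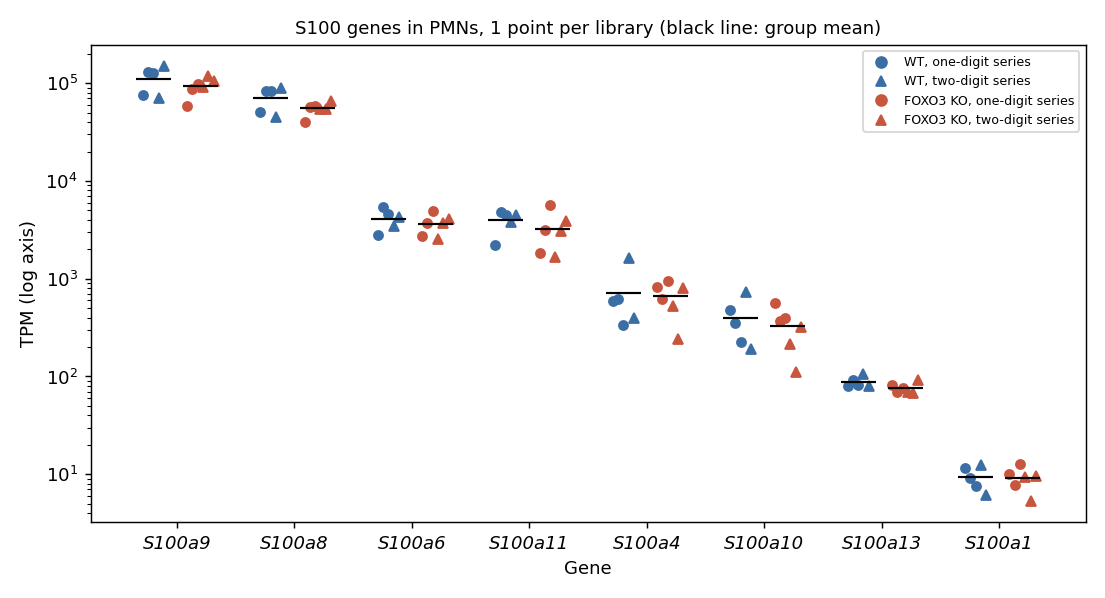
TPM (log axis) of the 8 S100 genes, with 1 point per library, color for genotype, shape for numbering series and a black line for the group mean. WT and FOXO3 KO points overlap for every gene, and WT 03 stands above the other WT libraries for S100a4 at 1641 TPM.

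Calprotectin genes filled a large and variable part of each library. S100a8 and S100a9 together held 10.5% of all TPM in FOXO3 KO 1, the lowest, and 25.1% in WT 08, the highest, while the other 6 genes together held 0.529% to 1.28%. By genotype the calprotectin share was 19.2% ± 5.93 (mean ± SD, n = 5) in WT and 15.8% ± 2.89 (mean ± SD, n = 6) in FOXO3 KO. The WT libraries fell apart into WT 2, 3 and 08 at 22.5% to 25.1% and WT 1 and 03 at 13.5% and 12.1%, and all FOXO3 KO libraries lay between 10.5% and 18.6%. Because TPM is a share of a fixed total, a library with more calprotectin RNA has less room for all other genes, and fold changes were recomputed with TPM scaled to the total without these genes.

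**Figure D2:**
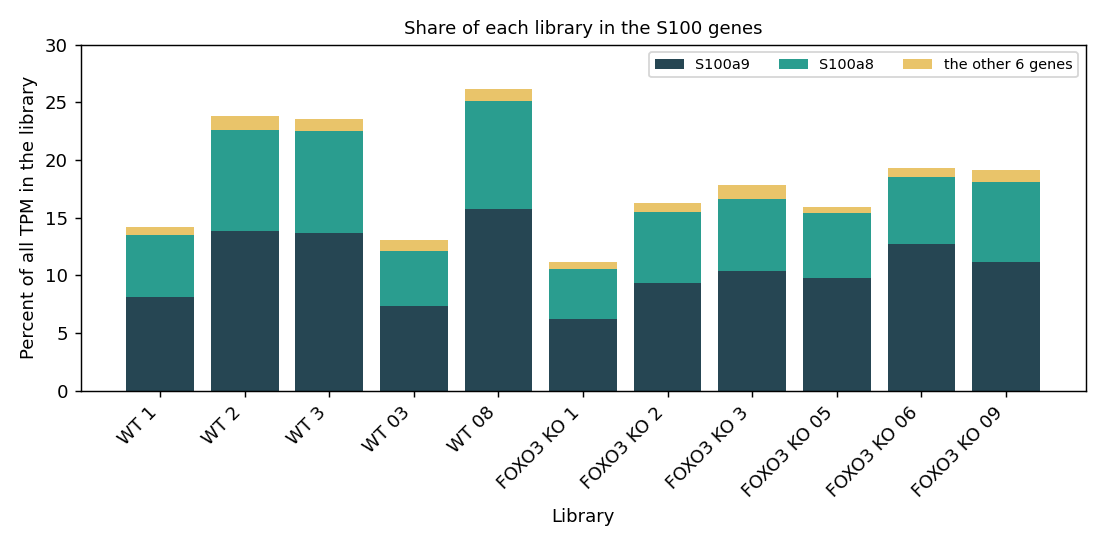
Percent of all TPM of each library (bars from 0) held by S100a9, S100a8 and the other 6 genes together. The calprotectin genes hold 10.5% (FOXO3 KO 1) to 25.1% (WT 08), and the other 6 genes at most 1.28%.

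Of the 8 genes, 0 passed the test between FOXO3 KO and WT PMNs. The deleted gene Foxo3 did not pass either (limma FDR = 0.49), so failing this test does not dismiss a difference in the members. Foxo3 had an unadjusted limma p of 4.0e-05, however, and the members had 0.18 to 0.99. The test was limma on log2(TPM + 1) with genotype as its term and FDR adjusted over the 12195 genes whose mean reached 1 TPM, where 0% of all genes were called (FDR < 0.05 and a log2 fold change beyond 0.5 in size). With 1 library left out, 2 genes were called without WT 3 and 1 each without WT 08 and FOXO3 KO 1, none of them a member. At an unadjusted p under 0.05 stood 0 of the 8 members and 257 genes in all (2.11%). The groups overlapped for all 8 members, as they did for all but 16 genes tested (0.131% without overlap). All 8 log2 fold changes were below 0, with a median of -0.20 against 0.11 for all genes, of which 31.4% were below 0; quantile normalization moved S100a8 to 0.05 and set S100a9 to 0, since S100a9 ranked 1 in every library. Relative to the median of all genes, that of the members was lower by 0.32 in the TPM as deposited, 0.34 after median-of-ratios scaling, 0.33 after scaling without S100a8 and S100a9, and 0.20 after quantile normalization. Shared libraries and correlated levels mean that the members are not independent of one another.

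S100a8, the smaller calprotectin subunit, had 50311, 83104 and 83486 TPM in WT 1, 2 and 3 and 45016 and 88865 TPM in WT 03 and 08. In FOXO3 KO PMNs it ranged from 40234 TPM (FOXO3 KO 1) through a median of 56012 TPM to 66196 TPM (FOXO3 KO 09). WT 2, 3 and 08 lay above every FOXO3 KO library, and the other WT libraries, 1 and 03, lay within the FOXO3 KO range. The means were 70156 ± 20744 TPM (mean ± SD, n = 5) and 55129 ± 8484 TPM (mean ± SD, n = 6), with a log2 fold change of -0.31 (SE 0.26, 95% interval -0.87 to 0.26, limma FDR = 0.99). Within the series the log2 fold change was -0.46 (one-digit) and -0.12 (two-digit).

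S100a9, the larger subunit whose tail takes part in metal binding, had 75939, 130057 and 128522 TPM in WT 1, 2 and 3 and 70062 and 148716 TPM in WT 03 and 08. FOXO3 KO PMNs ranged from 58188 TPM (FOXO3 KO 1) through a median of 95222 TPM to 119027 TPM (FOXO3 KO 06). WT 2, 3 and 08 were again above every FOXO3 KO library, and WT 1 and 03 were again within their range. The log2 fold change was -0.21 (SE 0.29, 95% interval -0.84 to 0.42, limma FDR = 0.99). It was -0.45 within the one-digit series and 0.04 within the two-digit series, so its direction was not the same in both. The ratio of S100a9 to S100a8 stayed at 1.45 to 1.71 in 10 libraries and reached 2.17 in FOXO3 KO 06.

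The neutrophil markers (10 genes) shared their highest libraries with the calprotectin genes, and their lowest in part. Their summed level was highest in WT 3 (21941 TPM), WT 08 (21855 TPM) and WT 2 (18132 TPM), the same 3 libraries that were highest in S100a8 and in S100a9, and lowest in FOXO3 KO 1 (5343 TPM), which was also lowest in both genes. Of the 3 lowest libraries they shared only this 1 with S100a8 and with S100a9, and WT 03, next to the lowest in both genes, stood in the middle of the markers (11594 TPM). Retnlg, a resistin-like protein of neutrophils, was the largest single part of the sum in each library (12573 TPM in WT 3), and single markers need not follow it: Ly6g was highest in FOXO3 KO 3 (219 TPM). All 10 markers had a log2 fold change below 0 in FOXO3 KO (median -0.46), against 31.4% of all genes. Macrophage markers (10 of 10 tested, median -0.44) and eosinophil markers (5 of 5 tested, median -0.44) did so too. T cell, B cell, mast cell and erythroid markers all lay above 0. In each of these lists 0 markers passed the test, as did 0% of all genes. Eosinophil markers shared 2 of the 3 highest and 0 of the 3 lowest libraries with S100a8, and the same numbers with S100a9. In bulk PMNs, fewer cells of a type and less RNA per cell cannot be told apart. The part of either list of markers in the S100a8 and S100a9 values was not tested.

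**Figure D3:**
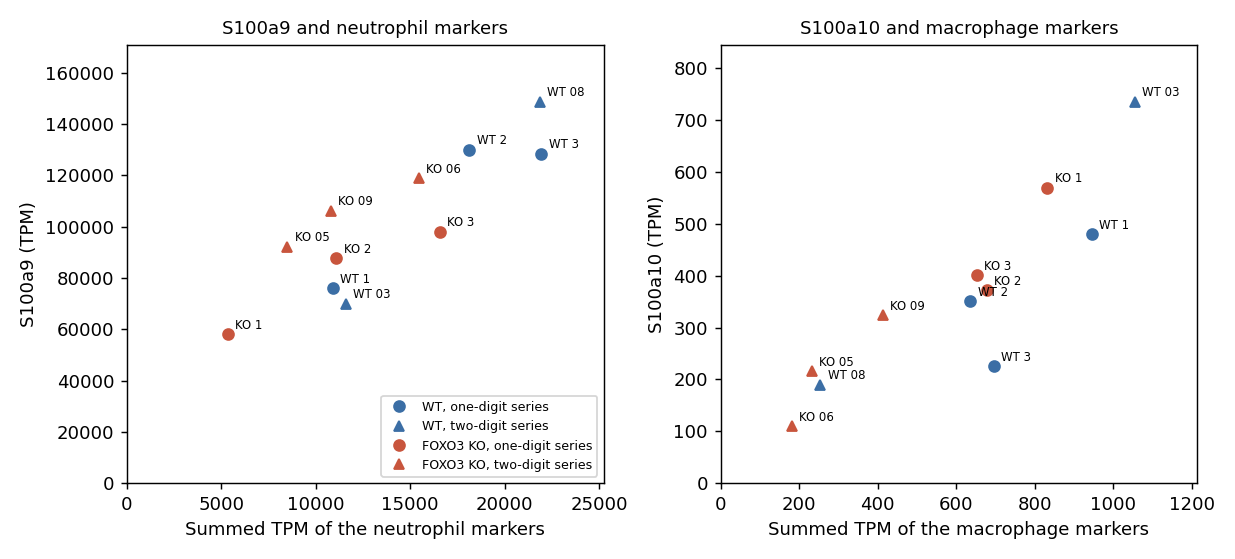
S100a9 (TPM) against the summed TPM of 10 neutrophil markers (left) and S100a10 (TPM) against the summed TPM of 12 macrophage markers (right), with 1 labelled point per library. WT 2, 3 and 08 are highest on both axes at left, and WT 03, FOXO3 KO 1 and WT 1 are highest on both axes at right.

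S100a6, also called calcyclin, had 2805, 5353 and 4561 TPM in WT 1, 2 and 3 and 3472 and 4280 TPM in WT 03 and 08. FOXO3 KO PMNs ranged from 2535 TPM (FOXO3 KO 05) through a median of 3704 TPM to 4980 TPM (FOXO3 KO 3). WT 2 was the highest of all libraries, and the groups overlapped almost wholly. The log2 fold change was -0.18 (SE 0.23, limma FDR = 0.99), with -0.15 and -0.18 within the one-digit and the two-digit series.

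S100a11, a partner of annexins, had 2229, 4797 and 4460 TPM in WT 1, 2 and 3 and 3766 and 4529 TPM in WT 03 and 08. In FOXO3 KO PMNs it ranged more widely, from 1661 TPM (FOXO3 KO 05) through a median of 3126 TPM to 5701 TPM (FOXO3 KO 3). The lowest and the highest library were thus both FOXO3 KO. Its log2 fold change was -0.37 (SE 0.33, 95% interval -1.09 to 0.35, limma FDR = 0.99), and -0.17 and -0.61 within the one-digit and the two-digit series.

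S100a4, the partner of non-muscle myosin that is also known as a marker of fibroblasts and of motile cells, had 594, 625 and 340 TPM in WT 1, 2 and 3 and 1641 and 396 TPM in WT 03 and 08. FOXO3 KO PMNs ranged from 241 TPM (FOXO3 KO 06) through a median of 711 TPM to 937 TPM (FOXO3 KO 3). WT 03 stood apart above all other libraries, and the remaining WT libraries lay inside the FOXO3 KO range. The log2 fold change was -0.0050 (SE 0.43, 95% interval -0.94 to 0.93, limma FDR = 1.00), and 0.35 (limma FDR = 0.80) without WT 03. Within the one-digit series it was 0.64 and within the two-digit series -0.79, and the interaction of genotype and series was -1.43 (SE 0.81, unadjusted p = 0.11, limma FDR = 1.00), a fit in which 0% of genes passed.

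S100a10, which joins annexin A2 at the membrane and has lost the ability to bind calcium, had 480, 351 and 226 TPM in WT 1, 2 and 3 and 735 and 190 TPM in WT 03 and 08. FOXO3 KO PMNs ranged from 110 TPM (FOXO3 KO 06) through a median of 348 TPM to 569 TPM (FOXO3 KO 1). WT 03 was again the highest and FOXO3 KO 06 again the lowest library, as for S100a4. Its log2 fold change was -0.25 (SE 0.44, 95% interval -1.20 to 0.70, limma FDR = 0.99), 0.39 within the one-digit and -0.92 within the two-digit series. The interaction was -1.30 (SE 0.77, unadjusted p = 0.12, limma FDR = 1.00).

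As a sum, macrophage markers (12 genes, Adgre1, Csf1r and C1qb among them) followed S100a10 over libraries more than S100a9. They summed to 1055 TPM in WT 03, 946 TPM in WT 1 and 832 TPM in FOXO3 KO 1, the 3 libraries with the most S100a10, and to 181 TPM in FOXO3 KO 06, 233 TPM in FOXO3 KO 05 and 254 TPM in WT 08, the 3 libraries with the least. Single markers need not follow the sum. Adgre1 and C1qb were highest in WT 03 (267 and 311 TPM), but Csf1r in FOXO3 KO 3 (138 TPM) and Mrc1 in WT 3 (79.5 TPM). With S100a4 the summed markers shared 2 of the 3 highest and 2 of the 3 lowest libraries, and with S100a8 and S100a9 they shared 0 of either. Mesothelial markers (4 genes in the table) shared the same numbers of libraries with S100a10 and S100a4, at sums of 0.122 to 1.71 TPM. Other lists shared libraries in part. Monocyte markers shared 2 of the 3 highest and 1 of the 3 lowest with S100a4, and 1 and 2 with S100a10. Erythroid markers shared 2 of the 3 highest and 1 of the 3 lowest with S100a4, and 2 and 0 with S100a10. The part of any of these lists in the S100a4 and S100a10 values was not tested.

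S100a13 was the steadiest member, with a coefficient of variation of 14.2% over the 11 libraries against 24.0% to 55.6% for the others. It had 79.7, 91.1 and 82.4 TPM in WT 1, 2 and 3 and 106 and 79.7 TPM in WT 03 and 08, and in FOXO3 KO PMNs 68.1 TPM (FOXO3 KO 06) through a median of 73.0 TPM to 92.1 TPM (FOXO3 KO 09). Of the 6 FOXO3 KO libraries, 4 lay below every WT library, and the groups overlapped through FOXO3 KO 1 and 09. The log2 fold change was -0.20 (SE 0.14, 95% interval -0.51 to 0.11, unadjusted p = 0.18, limma FDR = 0.99), the smallest p of the 8 members, and it was -0.15 and -0.27 within the one-digit and the two-digit series.

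S100a1, a regulator of calcium cycling in muscle, was the least abundant member, with 11.6, 9.08 and 7.52 TPM in WT 1, 2 and 3 and 12.4 and 6.07 TPM in WT 03 and 08. FOXO3 KO PMNs had from 5.38 TPM (FOXO3 KO 06) through a median of 9.44 TPM to 12.8 TPM (FOXO3 KO 3). These ranges were nearly the same, with a log2 fold change of -0.02 (SE 0.23, 95% interval -0.53 to 0.48, limma FDR = 1.00).

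**Figure D4:**
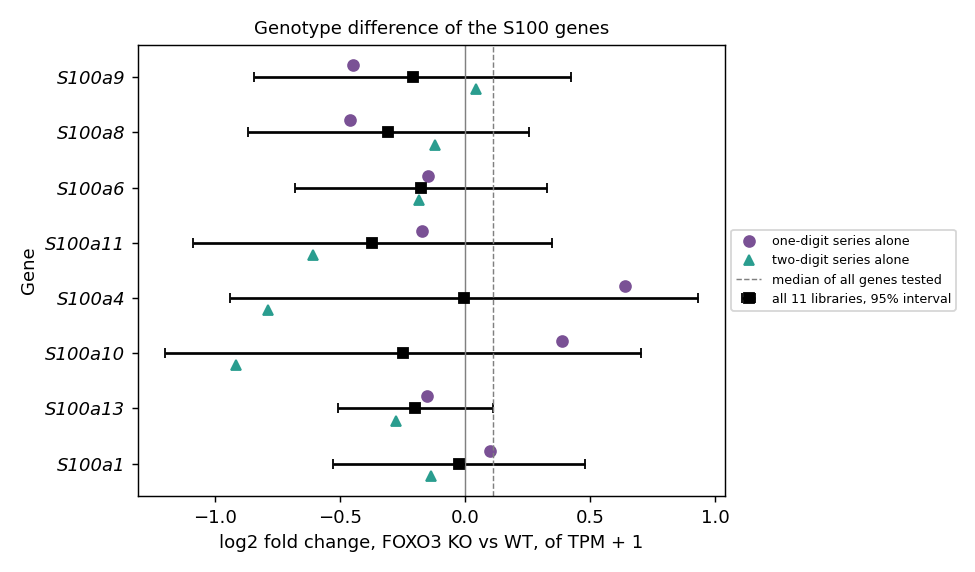
Log2 fold change of TPM + 1 in FOXO3 KO against WT PMNs, with squares and 95% intervals from the fit to all 11 libraries, circles and triangles from the one-digit and the two-digit series alone, and a dashed line at the median of all genes (0.11). Every interval includes 0, and the series lie on opposite sides of 0 for S100a9, S100a4, S100a10 and S100a1.

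With the numbering series as a term, 0 of the 8 members passed the genotype test (limma FDR = 0.87 to 1.00), as did 0% of all genes. Nor did a member pass between the series: 0 of 8 passed, against 20.0% of all genes, and 0 of 8 had an unadjusted p under 0.05, against 35.1% of all genes. The largest series difference belonged to S100a10, with 400 ± 117 TPM (mean ± SD, n = 6) in the one-digit and 315 ± 247 TPM (mean ± SD, n = 5) in the two-digit libraries (log2 difference -0.57, SE 0.42, limma FDR = 0.35). Without WT 03 it was -1.04 (limma FDR = 0.031), so this result rested on 1 library. S100a8 and S100a9 differed between series by 0.03 and 0.19 (limma FDR = 0.94 and 0.66).

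Among themselves 7 of the 8 genes fell into 2 blocks over libraries, and S100a13 into neither. Likeness was measured as Pearson r of log2(TPM + 1) over the 11 libraries after subtracting the mean of each series, and is given as a description, since genes of a library share its total and its cells. S100a8 and S100a9 were alike (r = 0.95), and so were S100a6 and S100a11 (r = 0.96). Between these pairs r was 0.65 to 0.77. S100a4 and S100a10 were alike as well (r = 0.95), and S100a1 went with them (r = 0.88 and 0.83). S100a4 and S100a10 ran against S100a9 (r = -0.64 and -0.74), and S100a13 was closest to S100a10 (r = 0.71) and near 0 with S100a8 (r = 0.02), but within the 6 one-digit libraries its r with S100a10 was -0.08 and with S100a4 -0.15. The pairs that were alike were next to each other on the chromosome for S100a8 and S100a9, but not for S100a6 and S100a11 or for S100a4 and S100a10, and the neighbours S100a11 and S100a10 had r = -0.11. Within the 6 one-digit libraries r was 0.99 for S100a8 and S100a9, 0.97 for S100a6 and S100a11 and 0.80 for S100a4 and S100a10.

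**Figure D5:**
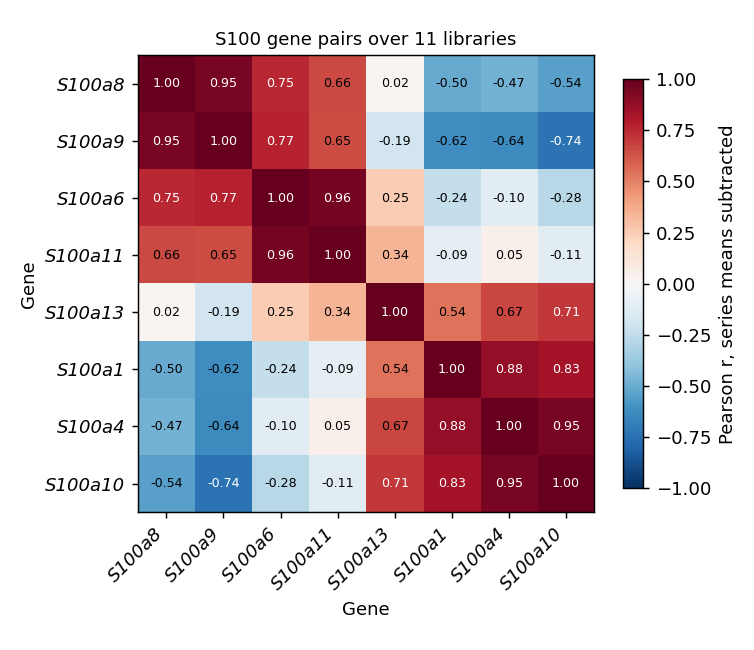
Pearson r of log2(TPM + 1) for each pair of S100 genes over 11 libraries after subtracting the mean of each numbering series (red positive, blue negative). S100a8, S100a9, S100a6 and S100a11 form a block at 0.65 to 0.96, and S100a1, S100a4 and S100a10 another at 0.83 to 0.95.

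Ratios show the same in the levels themselves. From library to library the ratio of S100a11 to S100a10 moved from 3.23 (FOXO3 KO 1) to 27.9 (FOXO3 KO 06), and that of S100a6 to S100a4 from 2.12 (WT 03) to 15.5 (FOXO3 KO 06), whereas S100a6 to S100a11 stayed within 0.874 to 1.53. WT and FOXO3 KO libraries were spread over both wide ranges, at 4.65 to 23.9 and 3.23 to 27.9 for S100a11 to S100a10.

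Among 6099 genes whose mean reached 10 TPM, those most like S100a8 by the same measure were S100a9, Ankrd46 (r = 0.91) and Trem3 (r = 0.88), a myeloid receptor. S100a9 was most like S100a8, Ankrd46 (r = 0.93) and Mefv (r = 0.93), the gene of pyrin, an inflammasome sensor. S100a6 was most like Gpsm3 (r = 0.98), Mmp9 (r = 0.97), a gelatinase of neutrophil granules and one of the neutrophil markers listed here, and Gm10524 (r = 0.97). S100a11 was most like Vamp5 (r = 0.98), Anxa11 (r = 0.98), an annexin, and Lcp1 (r = 0.98), the actin-bundling plastin of leukocytes. For S100a4 these were Arl5c (r = 0.98), Apobec1 (r = 0.95), the editing deaminase of apolipoprotein B, and Alkbh3 (r = 0.95). S100a10 was followed by Ms4a6d, Tm2d1 and Rap2b (r = 0.97 each), and S100a13 by Dynlt1f (r = 0.90), Gm24715 (r = 0.89) and Creb3 (r = 0.89). Each of these r is among the highest of 6099 over 11 libraries and carries no test.

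Other S100 genes were scarce. Of the 9 in the table, 2 had a mean that reached 1 TPM. S100a2 had 1.36 ± 0.85 TPM (mean ± SD, n = 5) in WT and 2.58 ± 1.61 TPM (mean ± SD, n = 6) in FOXO3 KO PMNs (log2 fold change 0.61, SE 0.34, limma FDR = 0.99), and it lies within the span of S100a3 on the same strand, so its reads are uncertain. S100a5 had at most 1.78 TPM in 10 libraries and 8.20 TPM in FOXO3 KO 05 (log2 fold change 0.16, limma FDR = 0.99). S100a3, S100a7a, S100a14, S100a16 and S100b had means below 1 TPM, at 0 to 2.35 TPM per library, and S100g and S100z were listed at 0 in every library.

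Receptors and binding partners of S100 proteins were a list of 24 genes, of which 22 were in the table and 16 had a mean that reached 1 TPM. Between genotypes 0 of the 16 passed in either direction, as did 0% of all genes. Of their log2 fold changes 12 were below 0, against 31.4% of all genes, with a median of -0.06. Anxa2, the partner of S100a10, had 1470 ± 310 TPM (mean ± SD, n = 5) in WT and 1309 ± 459 TPM (mean ± SD, n = 6) in FOXO3 KO PMNs (log2 fold change -0.24, SE 0.30). Fpr1, the formyl peptide receptor, had 1284 ± 324 and 1219 ± 204 TPM, Il1a, whose protein leaves cells with the help of S100a13, had 489 ± 229 and 644 ± 186 TPM (log2 fold change 0.48, SE 0.31), and Anxa5 had 361 ± 166 and 315 ± 150 TPM (limma FDR = 0.99 for each of the 4). Tlr4 and Ager, which encode the receptors of calprotectin named above, were chosen after their values were seen and do not stand for every receptor on the list. They were lower in level: Tlr4 had 57.6 ± 11.8 and 49.2 ± 17.5 TPM, and Ager, which encodes RAGE, had 1.45 ± 0.35 and 1.48 ± 0.53 TPM. Between series 1 of the 16 passed, against 20.0% of all genes: Ly96, the co-receptor of TLR4, with 66.0 ± 15.9 TPM (mean ± SD, n = 6) in the one-digit and 37.5 ± 14.7 TPM (mean ± SD, n = 5) in the two-digit libraries (log2 difference -0.86, SE 0.27, limma FDR = 0.044).

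Transcription factors known to act on S100a8 and S100a9, with Foxo3 itself, made a list of 10 genes, all tested. Between genotypes 0 passed in either direction, as did 0% of all genes, with 8 below 0 (31.4% of all genes) and a median of -0.16. Foxo3 had a log2 fold change of -1.65 (SE 0.26, limma FDR = 0.49). The myeloid factor Spi1 had 436 ± 81.5 TPM (mean ± SD, n = 5) in WT and 409 ± 97.2 TPM (mean ± SD, n = 6) in FOXO3 KO PMNs. Between series 4 of the 10 were lower in the two-digit libraries and 0 higher, against 20.0% of all genes in either direction. Cebpb, the C/EBP factor of emergency granulopoiesis, fell from 451 ± 52.2 TPM (mean ± SD, n = 6) to 238 ± 51.3 TPM (mean ± SD, n = 5) (log2 difference -0.93, SE 0.16, limma FDR = 0.0027), and Hif1a, the hypoxia factor, from 224 ± 41.2 to 110 ± 26.2 TPM (-1.03, SE 0.18, limma FDR = 0.0028). Stat3 and Cebpd were lower by the same test as well (log2 difference -0.54 and -1.23). S100a8 and S100a9 did not pass between the same libraries, with values given above.

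Other small EF-hand proteins, a list of 12 genes with 11 tested, had 0 called between genotypes, as had 0% of all genes. Their log2 fold changes were below 0 for 9 genes (31.4% of all genes), with a median of -0.05. Between series 2 of the 11 were lower in the two-digit libraries and 0 higher, against 20.0% of all genes in either direction. Gca, which encodes the neutrophil protein grancalcin, was 1 of them, with 30.1 ± 5.63 TPM (mean ± SD, n = 6) in the one-digit and 19.8 ± 4.96 TPM (mean ± SD, n = 5) in the two-digit series (log2 difference -0.61, SE 0.19, limma FDR = 0.045). Efhd2, Sri and Capns1 were abundant in this list, at means of 362, 322 and 289 TPM over all libraries.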

How the data were processed

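PMN RNA of 5 WT and 6 FOXO3 KO mice was sequenced, 1 library per mouse (RNA integrity numbers over 8). The authors deposited 1 table of 54164 genes with TPM per library, a unit scaled for length and library total, and columns sum to 935140 to 952238 TPM. It also holds a mean normalized count over all libraries (a signal computed by the authors) and their genotype comparison (log2 fold change, its standard error, a score, a p-value and an adjusted p-value, all deposited by the authors), which were not used. Tools listed in the submitters' processing notes are kallisto 0.46.0, STAR 2.6.1d and DESeq2, with no roles given, beside a human and a mouse build. The annotation and the use of strand are not given in the sources used here. Depth per library is unknown.

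TPM was analysed as log2(TPM + 1) with limma 3.58.1 (R 4.3.3, mean-variance trend, Benjamini-Hochberg FDR) over 12195 genes whose mean reached 1 TPM, so fold changes of low genes are understated. Thresholds were FDR < 0.05 and a log2 fold change beyond 0.5 in size. The fit was tested on simulated data. Those data held no difference between series and no correlation between genes, so the check does not cover these features of the libraries. The S100 genes and all gene lists were chosen with earlier results of these data known. The text names every member, Foxo3, other S100 genes, in the other lists genes called and otherwise the 4 most abundant, and the 3 genes most like each member whose mean reached 10 TPM. Cd14, Ahnak, S100p and the mesothelial marker Msln were not analysed here. Of the list of EF-hand proteins, 1 gene is not reported here. The one-digit columns were matched to labelled mice, and the two-digit columns to a genotype only. Numbers 1, 2 and 3 occur in both genotypes. Deviations from the means of genotype and series correlated across genes at 0.51, 0.17 and 0.41 between same-numbered libraries and at -0.42 to 0.09 between others. Because deviations from a mean sum to 0, these sets of r are not free of each other. Equal numbers were taken as pairs only in the replicate block below, and no source says what a number stands for. The fits whose fold changes, SE and FDR are given in the Results held no such pairs. Libraries correlated with each other at 0.83 to 0.97, so none was counted as a duplicate. Alternatives were a pseudocount of 0.1, no filter, a mean of at least 5 TPM, quantile normalization, median-of-ratios scaling, scaling without S100a8 and S100a9, each library left out, a replicate block, the series as covariate, each series alone and sample weights. Scaling without S100a8 and S100a9 together with the series covariate was added after seeing the data. P-values measure the spread between these mice. Figures were drawn with matplotlib 3.10.9.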

Additional observations from a re-analysis of the deposited data

Results flagged for a closer look

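S100a4 had 1641 TPM in WT 03, far above the next WT library, WT 2, at 625 TPM: the gap was 0.781 of the range of the 5 WT libraries, beyond the 95% limit for a single distant value. The gap was taken on TPM, without the log2 step of the fits, on which the same gap is a smaller part of the range. The mark therefore applies to TPM only. Of 16 groups examined this way (8 genes in 2 genotypes), 1 was so marked, and chance marks about 1 in 20. WT 03 also had the most S100a10 (735 TPM) and the highest summed macrophage markers (1055 TPM), and their part in the value was not tested.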

How the results depend on the processing

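In every alternative run, 0 of the 8 S100 genes passed the genotype test. Quantile normalization sets S100a9 to 0 in both comparisons, since it ranked 1 in every library and is given 1 value. Between genotypes it turned S100a8 to 0.053, the replicate block and the series covariate turned S100a4 to 0.0059, and sample weights turned S100a4 to 0.28, S100a10 to 0.01 and S100a1 to 0.0385 on the log2 scale. The one-digit series alone gave S100a4 0.64, S100a10 0.39 and S100a1 0.10 and called 2 genes (Mir6904 and Gm23368) in place of 0, and the two-digit series alone gave S100a9 0.0448. The replicate block called 0 genes and changed no other call. Between series, median-of-ratios scaling turned S100a4 to 0.0281, S100a6 to 0.0313 and S100a11 to 0.0836, and a mean of at least 5 TPM called 1605 genes in place of 2436, since fewer genes were tested. The cause of the other reversals was not tested.

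With each library left out, 0 to 2 genes were called between genotypes and 1500 (without WT 08; 1527 without FOXO3 KO 2) to 3642 (without WT 03) between series. Genotype log2 fold changes ranged from -0.45 to -0.21 (S100a8), -0.36 to -0.08 (S100a9), -0.21 to 0.35 (S100a4), -0.30 to -0.07 (S100a6), -0.47 to 0.033 (S100a10), -0.56 to -0.20 (S100a11), -0.26 to -0.13 (S100a13) and -0.15 to 0.10 (S100a1). Series differences ranged from -0.093 to 0.23 (S100a8), 0.05 to 0.42 (S100a9), -0.61 to 0.21 (S100a4), -0.22 to 0.0043 (S100a6), -1.04 to -0.29 (S100a10), -0.23 to 0.18 (S100a11), -0.025 to 0.11 (S100a13) and -0.39 to -0.08 (S100a1). S100a10 passed between series only without WT 03 (-1.04, limma FDR = 0.031). Scaling without S100a8 and S100a9 together with the series covariate, chosen after seeing the data, left all 8 genotype values below 0 (S100a4 -0.05, S100a8 -0.37). Depth is unknown, so no limit of detection can be given.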
